A study of Mus musculus with 16 samples.

Results

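MHCII-low resident macrophages of the mouse heart were compared with Ly6c-high monocytes of the blood. The 2 populations were chosen by their sample labels alone and make up 8 of the 16 arrays of the study, 4 for each population. All samples came from untreated C57BL/6 mice with no transgene or deletion named. The macrophages were sorted from minced and digested heart as live cells, by exclusion of the dye DAPI, that carried CD45, MerTK and CD64, lacked Ly6c, CCR2 and CD11c, and had low MHCII. The monocytes are labelled as blood Ly6cHi cells, with no further gate given. The other 8 arrays hold MHCII-high heart macrophages, which were CCR2-negative and CD11c-low, and CCR2+ heart macrophages, which were CCR2-high and MHCII-high. Each sample gave 1 ng of RNA to a single-colour array. Age and sex of the mice, pooling of animals, and whether the 4 replicates of a population came from separate mice are not given by the labels, so p-values measure the spread between these samples, which may be technical.

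Ly6c-high monocytes leave the bone marrow, circulate briefly and enter tissues through the chemokine receptor CCR2. Macrophages that reside in the heart take up dying cells and debris, produce complement and growth factors, and in large part renew themselves within the tissue. Their MHCII-low, CCR2-negative fraction is the one most often tied to the embryonic macrophage lineage, and carries scavenger receptors such as LYVE1, CD163, TIMD4 and the folate receptor FOLR2. The comparison therefore sets a long-lived tissue phagocyte beside a short-lived cell of the blood.

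Levels below are log2 signals of 1 probe per gene relative to the 75th percentile of the same array, so 0 is the signal that 75% of an array's probes do not exceed. They are given in the order of replicates 1 to 4, which is also the order of the 4 slides. A level of 1 probe cannot be set against that of another. A difference is the macrophage mean minus the monocyte mean, on the log2 scale, from a limma fit to all 16 arrays, and a gene is called higher or lower where its p-value, adjusted over all genes by the Benjamini-Hochberg method, is under 0.05. Where none of the 4 arrays of a population had the gene well above background, only a lower bound is given, as "at least N-fold". A p-value beside a bound is that of the fitted difference. It includes the signals of the dim spots, whose spread need not be that of the samples, and it does not test the bound. The bound sets the mean of the bright population against the dimmest signal that still counted as well above background on each array. It holds for the processing used throughout. Under other processing the log2 difference itself could be smaller than the bound. That of C1qc ran from 7.44 to 10.60 and that of Ear2 from -9.28 to -6.72. Where only some arrays of a population were well above background, the fitted fold is given and rests in part on dim signals.

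The monocyte arrays were dimmer than the macrophage arrays. Their 75th percentile of processed signal was 822 to 998, against 1170 to 1610, and 52.8% to 60.1% of their spots were well above background, against 58.5% to 69.3%. No spot was saturated. Correlations between arrays across genes, which are not independent replicates, were 0.916 to 0.973 within the macrophages, 0.945 to 0.967 within the monocytes and 0.853 to 0.903 between the populations. Each population sat at 1 fixed array position on every slide, so position and population cannot be told apart. Heart was digested and no such step is described for blood, so tissue handling and cell type cannot be told apart either.

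The 2 populations differed over a large part of the array. Of 22110 genes or unnamed features tested, 2232 were called higher in the macrophages (10.1%) and 2486 lower (11.2%), 4718 in all (21.3%). With the replicate number, which is the slide, as a block in the model, the calls were 7124, 3105 higher and 4019 lower. Background correction by normexp moved the split to 1640 higher and 3224 lower and the median of all genes to -0.23, and keeping dim probes moved it to 2268 higher and 4560 lower with a median of -0.20. The median difference over all genes was -0.05 in the setting used throughout, and that is the zero against which the lists below should be read. Counts of called list members are likewise to be read against 10.1% higher and 11.2% lower, and counts with the block against its own larger totals. The levels of the 4 macrophage arrays and the 4 monocyte arrays did not overlap for 5045 genes (22.8%), and 4239 of these were called. By the fitted difference 733 called genes were over 4-fold higher and 346 over 4-fold lower, and beyond 16-fold there were 173 and 88. Among called genes, 533 of the higher ones were well above background on no monocyte array, and 95 of the lower ones on no macrophage array. These 2 counts cannot be set against each other. A probe was tested if well above background on any 4 of the 16 arrays, most of which hold macrophages. The dimmest signal that counted was also higher on the monocyte arrays, at -3.28 to -2.91 against -3.90 to -3.51. Since whole populations were measured, fewer cells that express a gene and less RNA of it per cell cannot be told apart.

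**Figure D1:**
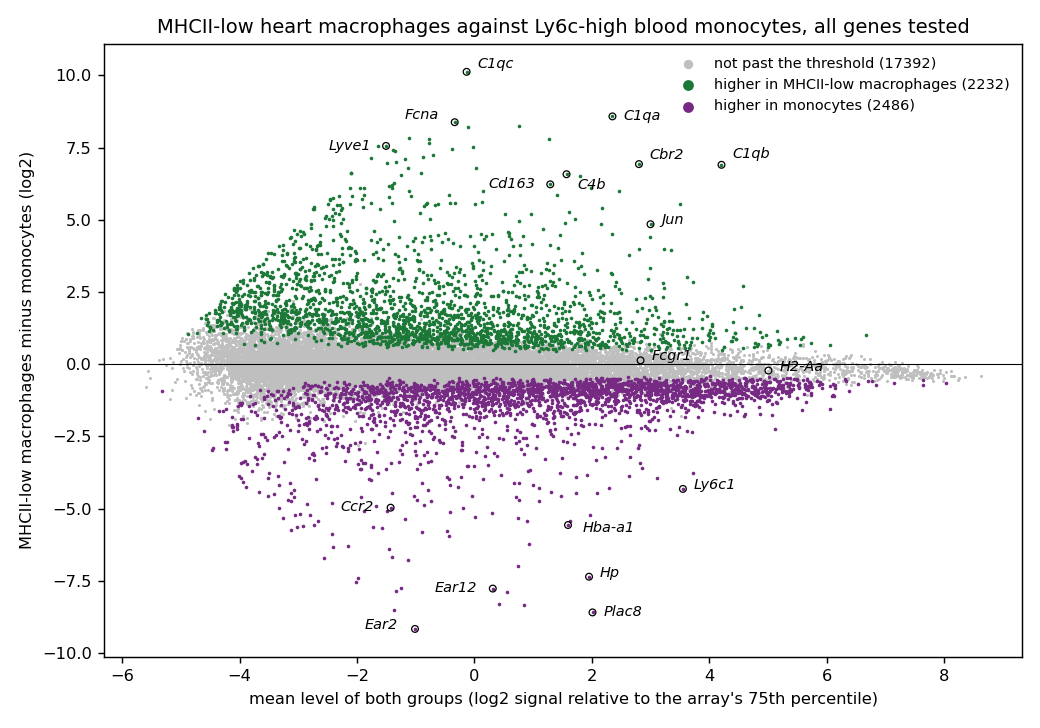
Each point is 1 of the 22110 genes or features tested. The x axis is the mean level of both populations (log2 signal relative to the 75th percentile of the array) and the y axis is MHCII-low macrophages minus monocytes (log2). Coloured points are the 2232 genes called higher and the 2486 called lower, and grey points did not pass. The cloud centres near the median of -0.05.

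Most cardiomyocyte marker genes and some of fibroblasts and endothelium were higher in the macrophage arrays, and red cell genes in the monocyte arrays. The source of these transcripts was not tested. Of 15 cardiomyocyte genes tested, 11 were higher in the macrophage arrays and 0 lower, with a median difference of 2.64 (2.50 with dim genes at their bound). Summed signals here and below cover all genes of a list with a usable probe, tested or not, in units of the 75th percentile. For the 16 cardiomyocyte genes the sum was 28.8 to 41.7 in the macrophages and 5.17 to 7.19 in the monocytes. Myoglobin (Mb), the oxygen store of heart muscle, had levels of 1.89, 1.35, 1.63 and 2.33 in the macrophages and was well above background on no monocyte array, a difference of at least 30.6-fold (adjusted p = 5.19e-11). Troponin T (Tnnt2) of the contractile filament was at least 18.3-fold higher and cardiac actin (Actc1) at least 11.6-fold. Of the 16 cardiomyocyte markers, 15 were well above background on every macrophage array, and the calcium release channel Ryr2 on none. On the monocyte arrays 8 to 9 of the 16 were well above background, and 7, among them Mb, Tnnt2 and Actc1, were so on no monocyte array. Fibroblast and mural genes were higher for 5 of 8 tested. The summed signal of the 13 with a usable probe was at least 8.59 on every macrophage array against 1.97 to 2.48 in the monocytes. Decorin (Dcn), a collagen-binding proteoglycan of fibroblasts, was at least 43.9-fold higher (adjusted p = 5.25e-10), whereas the fibroblast and pericyte receptors Pdgfra and Pdgfrb and the matrix protein Dpt were well above background on no macrophage array. With normexp correction 2 of the 8 were called higher. Endothelial genes were higher for 4 of 12, led by the water channel Aqp1, which was at least 6.49-fold higher, and 2 passed with normexp. The junction cadherin Cdh5 was well above background on no array of either population. Summed endothelial signal was 6.35 to 8.91 against 3.60 to 5.17.

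Haemoglobin went the opposite way. Hba-a1, the alpha chain, had levels of -0.01, -2.76, -1.84 and -0.14 in the macrophages and 3.27, 4.51, 4.29 and 5.44 in the monocytes, a difference of -5.57 ± 0.60 (SE, adjusted p = 5.25e-06). All monocyte arrays lay above all macrophage arrays, and monocyte replicate 1 was the lowest of its group. The beta chains Hbb-b2 and Hbb-bt were at least 30.9-fold and at least 22.5-fold lower in the macrophages. Over the 7 platelet and erythroid genes tested, 4 were lower and 0 higher in the macrophages, and the summed signal of the 10 such genes with a usable probe was 3.60 to 5.74 against 13.7 to 48.8. Of the lymphocyte markers, 0 of 9 B-cell genes were higher and 2 lower, with summed signals of 19.3 to 56.2 and 26.6 to 46.6, and the B-cell surface protein Ms4a1 was well above background on no array of either. Of 13 T- and NK-cell genes, 1 was higher and 2 lower, and the lower count ran from 0 to 4 over the alternatives tried. Neutrophil and granule genes gave 1 higher and 3 lower of 13, with summed signals of 32.1 to 44.2 and 49.9 to 54.9, and the granule genes Ltf, Ngp and Mpo were well above background on no array of either population and S100a8 and Prtn3 on no macrophage array. The part of these cells in the results below was not tested.

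Immediate early genes, which are switched on within minutes of a stimulus, and heat shock genes were also higher in the macrophages. Of 25 immediate early genes tested, 20 were higher and 2 lower, with a median difference of 1.89 and slide medians of 1.86 to 2.59. The summed signal of the 27 with a usable probe was 231 to 348 against 68.5 to 93.0. Jun, a subunit of the transcription factor AP-1, had levels of 5.72, 5.11, 5.62 and 5.23 in the macrophages and 0.59, 0.77, 0.61 and 0.34 in the monocytes, a difference of 4.84 ± 0.20 (SE, adjusted p = 1.32e-10). Its partner Fosb had 4.96, 4.51, 4.82 and 4.04 against -0.36, -0.27, -0.55 and 0.03. The groups were far apart for both genes, and Fosb differed by 4.87 ± 0.21 (SE, adjusted p = 1.76e-10). Egr1, a zinc finger factor of the same early wave that was well above background on 2 of the 4 monocyte arrays, was 47.5-fold higher (adjusted p = 4.08e-10), and Egr2 at least 8.70-fold. Against this direction, Nr4a1, an orphan nuclear receptor that Ly6c-low monocytes depend on, was lower in the macrophages by 1.53 (adjusted p = 0.00203), with levels of 0.78 to 1.73 against 2.24 to 3.25. Of 15 heat shock genes 8 were higher and 0 lower, with a summed signal of 157 to 270 against 89.9 to 110. Hspa1a, the inducible HSP70, was 57.9-fold higher (adjusted p = 2.5e-09), and the small chaperone Hspb1 at least 20.1-fold, with macrophage levels that ran from 0.08 to 3.01. Tissue digestion was not varied in these samples, and its part in this was not tested.

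**Figure D2:**
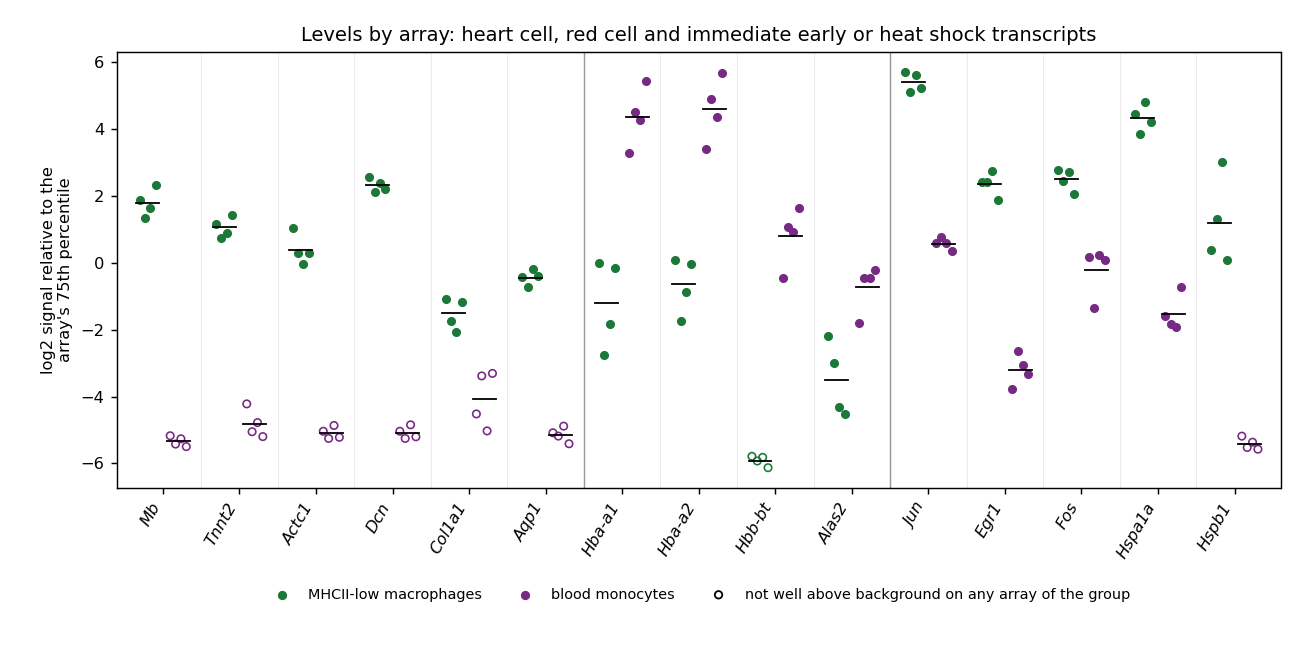
Levels by array (y axis, log2 signal relative to the 75th percentile of the array) in MHCII-low macrophages (green) and monocytes (purple) for heart cell genes on the left, red cell genes in the middle and immediate early or heat shock genes on the right. Points are the 4 arrays, bars their mean, and hollow points mark a gene whose probe was well above background on none of those 4 arrays. The heart cell genes drawn here are hollow in monocytes, red cell genes are higher in monocytes, and Jun lies at 5.11 to 5.72 in macrophages and 0.34 to 0.77 in monocytes.

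The genes whose proteins were used in the sort were read next. Mertk, the receptor through which macrophages bind dying cells and a marker of the macrophage gate, had levels of 2.87, 2.53, 3.20 and 2.24 in the macrophages and was well above background on no monocyte array, at least 57.6-fold apart (adjusted p = 5.04e-09). Ccr2, the receptor for monocyte entry, had -4.08, -3.77, -4.81 and -2.98 in the macrophages, where 1 of the 4 arrays was well above background, and 0.87 to 1.23 in the monocytes. All monocyte arrays exceeded all macrophage arrays, by 4.97 ± 0.33 (SE) on average (adjusted p = 2.16e-08). Ly6c1, from the locus of the monocyte surface antigen, had 1.28, 1.33, 1.40 and 1.55 against 5.95, 5.73, 5.72 and 5.44, a difference of -4.32 ± 0.28 (SE, adjusted p = 2.2e-08). The macrophage level was low but still well above background on all 4 arrays. Ptprc, which encodes CD45, was lower by 1.55 (adjusted p = 1.66e-05) although the macrophage gate required the protein. Itgax, which encodes CD11c, was lower by 1.85 (adjusted p = 0.0253), a call that was lost without macrophage replicate 3 or 4 or without monocyte replicate 3. Fcgr1, which encodes CD64, had levels of 2.83, 2.87, 3.10 and 2.78 in the macrophages and 2.81, 2.80, 2.99 and 2.46 in the monocytes, which overlap, and did not pass (difference 0.13 ± 0.18 SE, adjusted p = 0.709).

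Markers shared by tissue macrophages were higher for 15 of 26 tested and lower for 0, with a median difference of 1.30 (1.24 at the bound). Adgre1, which encodes the F4/80 antigen and was chosen after its values were seen, had levels of 4.32, 4.13, 4.25 and 4.09 in the macrophages and 3.03, 2.32, 2.34 and 2.00 in the monocytes, a difference of 1.78 ± 0.21 (SE, adjusted p = 1.35e-05). Csf1r, the growth factor receptor on which both cell types depend, had 6.56, 6.54, 6.74 and 6.48 against 6.28, 6.06, 6.55 and 6.16 and did not pass (difference 0.32 ± 0.18 SE, adjusted p = 0.255), and neither did the lysosomal glycoprotein Cd68 (difference 0.44 ± 0.19 SE, adjusted p = 0.13). Csf1r and Cd68 overlapped between the populations and Adgre1 did not. All 3 markers were well above background on each of the 8 arrays.

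The Ly6c1 probe lies on the transcript of a gene on chromosome 15, and Ly6c1 and its neighbour Ly6c2 are near-identical, so its reading may come from either gene. It is shown because the sorted antigen is read through this 1 probe, 5′ to 3′.
Ly6c1: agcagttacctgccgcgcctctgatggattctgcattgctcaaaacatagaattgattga

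Receptors and secreted proteins of resident heart macrophages were higher in the macrophages almost throughout the list. Of 23 genes tested from a list of 24 known for resident heart macrophages, 21 were higher in the macrophages and 0 lower. Their median difference was 6.01, or 5.47 with the 7 genes that were dim in monocytes at their bound, and the slide medians ran from 5.75 to 6.34. Between 20 and 22 were called higher under every alternative tried. The list was drawn up with earlier results of these data known, so its count is a description.

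Stab1, an endocytic scavenger receptor, had levels of 5.32, 4.90, 5.43 and 5.02 in the macrophages and -2.31, -2.20, -3.40 and -2.58 in the monocytes, 221-fold apart (adjusted p = 1.75e-11). Folr2, a folate receptor, had 5.10, 4.53, 5.16 and 4.69 against -4.10, -3.31, -3.85 and -2.22, a difference of 8.24 ± 0.33 (SE, adjusted p = 8.41e-11). For both genes every macrophage array stood above every monocyte array, and Stab1 was well above background on 2 monocyte arrays and Folr2 on 1. Cd163, the receptor that clears haemoglobin bound to haptoglobin, had 4.65, 4.09, 4.70 and 4.17 against -1.76, -1.95, -1.95 and -1.63, a 74.8-fold difference (adjusted p = 2.97e-11). Its monocyte arrays were close together and all well above background. The hyaluronan receptor Lyve1, with macrophage levels of 2.03, 2.35, 2.88 and 1.82, was well above background on no monocyte array and was at least 42.5-fold higher (adjusted p = 3.4e-09). The mannose receptor Mrc1 was at least 44.5-fold higher and Timd4, which binds the phosphatidylserine exposed by dying cells, at least 11.6-fold. Timd4 had macrophage levels of 0.39, 0.39, 0.52 and 0.27, a narrower spread than any other gene of the list.

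Several secreted or enzymatic products showed the same separation. Cbr2, a carbonyl reductase, had levels of 6.14, 6.02, 6.68 and 6.23 in the macrophages and -0.49, -0.83, -0.14 and -1.19 in the monocytes, 122-fold apart (adjusted p = 1.95e-11). Pf4, a chemokine of platelets that resident macrophages also make, had 5.49, 5.32, 5.73 and 5.32 against -1.64, 0.52, -0.65 and -0.41, a difference of 6.01 ± 0.33 (SE, adjusted p = 3.68e-09), in the direction opposite to the platelet chemokine Ppbp (-2.09 ± 0.56 SE, adjusted p = 0.0138). Retnla, a secreted resistin-like protein, had 3.15, 3.12, 2.89 and 2.59 against -5.11, -2.52, -1.87 and -1.21, and its monocyte arrays, 3 of them well above background, were spread over a wide range below the macrophages. Ccl24, an eosinophil-attracting chemokine, was 47.1-fold higher (adjusted p = 1.72e-09). Ednrb, the endothelin receptor B, was at least 45.4-fold higher and the transporter Slco2b1 at least 73.1-fold.

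**Figure D3:**
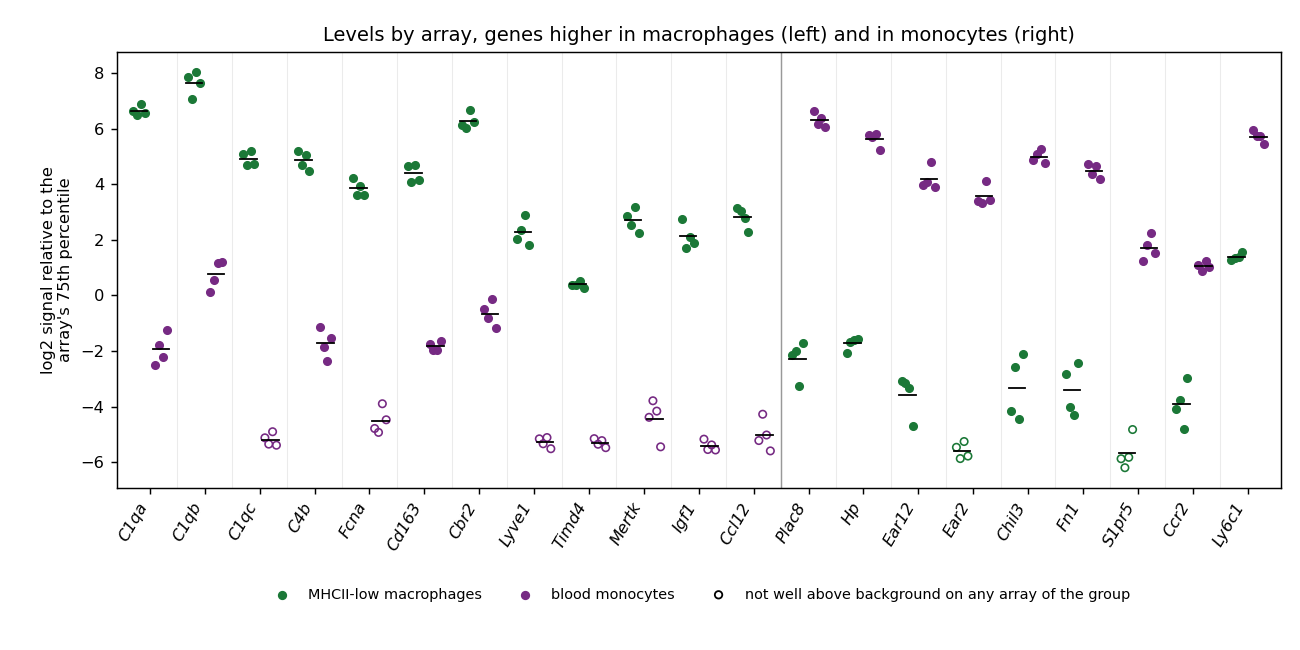
Levels by array (y axis, log2 signal relative to the 75th percentile of the array) for 21 genes in MHCII-low macrophages (green) and monocytes (purple), with genes higher in macrophages left of the line and genes higher in monocytes right of it. Points are the 4 arrays of a population, bars their mean, and hollow points mark probes well above background on none of those 4 arrays. C1qa lies at 6.50 to 6.88 in macrophages and -2.52 to -1.24 in monocytes, and Plac8 at -3.28 to -1.70 and 6.06 to 6.63.

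Complement held the largest increase of any gene measured in both populations. It is a cascade of serum proteins that tags microbes and dying cells for uptake and is read by receptors on phagocytes. C1q, which is made by macrophages, starts 1 of its routes. Of 24 complement genes tested 17 were higher in the macrophages, 2 lower and 5 did not pass, with a median difference of 2.31 (1.68 at the bound). C1qa, the first chain of C1q, had levels of 6.62, 6.50, 6.88 and 6.55 in the macrophages and -2.52, -1.79, -2.21 and -1.24 in the monocytes. The groups lay far apart, with all arrays well above background, and differed by 8.58 ± 0.25 (SE), which is 382-fold (adjusted p = 4.77e-12). C1qb had 7.87, 7.07, 8.05 and 7.65 against 0.13, 0.55, 1.15 and 1.20, a 119.5-fold difference (adjusted p = 8.41e-11). C1qc, with macrophage levels of 5.08, 4.69, 5.21 and 4.73, was well above background on no monocyte array and exceeded them at least 267-fold (adjusted p = 2.71e-14), the largest bound of any gene. All 3 chains were thus higher in every macrophage array than in any monocyte array.

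Other complement genes went both ways. C4b, which C1 cleaves next, had 5.19, 4.69, 5.06 and 4.48 against -1.13, -1.87, -2.35 and -1.52, a difference of 6.57 ± 0.33 (SE, adjusted p = 1.03e-09). Fcna, a ficolin that starts the lectin route, was at least 127-fold higher, with macrophage levels of 4.24, 3.62, 3.93 and 3.62 (adjusted p = 8.41e-11). The anaphylatoxin receptors C3ar1 and C5ar1 were 42.3-fold and 19.9-fold higher. C3, the central component on which all routes meet, ran the opposite way, with levels of 1.23, 1.69, 1.41 and 1.37 in the macrophages and 4.09, 3.61, 4.05 and 3.70 in the monocytes, a difference of -2.44 ± 0.27 (SE, adjusted p = 6.38e-06). No macrophage array reached the lowest monocyte array for C3. The other lower gene of the list was Itgax, the alpha chain of a receptor for cleaved C3, given among the sort markers. The C1qa probe, from a gene on chromosome 4, is shown because this gene has the largest fold among higher genes that were well above background on at least 1 array of each population.
C1qa: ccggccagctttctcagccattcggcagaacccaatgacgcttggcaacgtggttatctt

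Receptors for dying cells and modified lipoprotein were mixed. Of 24 efferocytosis and scavenger genes, 11 were higher and 4 lower, and 7 were lower with the slide as a block. Besides Stab1, Mertk, Cd163 and Timd4, the fatty acid and lipoprotein receptor Cd36 was 7.87-fold higher (adjusted p = 1.61e-05), with macrophage levels of 0.31, -0.23, 0.31 and 0.01 and monocyte levels of -4.14, -2.99, -1.93 and -2.45, 3 of the latter well above background. Colec12, a scavenger collectin, was at least 2.42-fold higher. On the other side Scarb1, the HDL receptor, was lower by 2.91 ± 0.30 (SE, adjusted p = 3.85e-06), the lipid-binding receptor Cd300lb by 2.54 (adjusted p = 2.46e-06) and Anxa1, a phospholipid-binding annexin, by 1.65 (adjusted p = 0.000195).

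The monocyte programme was lower in the macrophages nearly as uniformly as the resident programme was higher. Of 23 Ly6c-high monocyte genes tested 20 were lower and 0 higher, while 3 did not pass, with a median difference of -4.28 and slide medians of -5.02 to -4.04. This list too was drawn up with earlier results of these data known. It includes Ccr2, whose protein the macrophage gate excluded, so its count is a description. Plac8, a small cysteine-rich protein of blood myeloid cells, had levels of -2.15, -2.02, -3.28 and -1.70 in the macrophages and 6.63, 6.15, 6.38 and 6.06 in the monocytes, a difference of -8.59 ± 0.56 (SE), or 386-fold (adjusted p = 1.97e-08). Chil3, a chitinase-like lectin, had -4.16, -2.57, -4.46 and -2.11 against 4.86, 5.07, 5.28 and 4.77, and Napsa, an aspartic protease, had -5.41, -2.18, -3.65 and -3.73 against 4.58, 4.49, 4.90 and 4.31. For each of these, 2 of the 4 macrophage arrays were well above background. Plac8, Chil3 and Napsa did not overlap between the populations, and their macrophage arrays were more spread than their monocyte arrays. Hp, which encodes haptoglobin, the ligand that brings haemoglobin to Cd163, was 164-fold lower (adjusted p = 9.35e-09), with -2.06, -1.67, -1.61 and -1.56 against 5.78, 5.69, 5.81 and 5.24. Genes more typical of Ly6c-low monocytes were lower too, 8 of 11 against 1 higher: the receptor Treml4 was 43.1-fold lower (adjusted p = 2.14e-08) and the peptidoglycan-binding protein Pglyrp1 75.1-fold (adjusted p = 2.4e-07).

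Another group lower in the macrophages was the eosinophil-associated ribonucleases, small secreted RNases. Ear1 had levels of -2.72, -2.21, -2.44 and -3.60 in the macrophages and 4.04, 4.16, 4.59 and 4.17 in the monocytes, a difference of -6.98 ± 0.31 (SE, adjusted p = 2.74e-10). Ear12, well above background on 3 of the 4 macrophage arrays, had -3.09, -3.17, -3.33 and -4.70 against 3.99, 4.09, 4.80 and 3.91, a difference of -7.77 ± 0.39 (SE, adjusted p = 1.31e-09). Ear2 was well above background on no macrophage array, had monocyte levels of 3.41, 3.32, 4.13 and 3.42, and was at least 154-fold lower (adjusted p = 1.53e-12), the largest bound among the lower genes. The 3 genes are close relatives, and their probes may take each other's transcripts. The Ear1 and Ear12 probes share a stretch of 19 bases, in capitals, near opposite ends, which is why the pair is shown.
Ear1: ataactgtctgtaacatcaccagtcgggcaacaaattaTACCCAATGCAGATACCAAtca
Ear12: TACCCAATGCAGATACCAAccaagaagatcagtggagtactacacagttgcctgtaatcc

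Chemokine genes were mostly higher in the macrophages, while the receptors that guide cells went both ways. Of 22 chemokine ligands 14 were higher in the macrophages and 1 lower, with a median difference of 1.71 (1.20 at the bound). Ccl12 and Ccl8, which act on monocytes and other leukocytes, led the list. Ccl12 was well above background on no monocyte array and, at macrophage levels of 3.13, 3.05, 2.77 and 2.27, was at least 61.5-fold higher (adjusted p = 1.12e-10). Ccl8 had 4.73, 3.29, 3.68 and 3.23 against -3.71, -2.79, -5.13 and -3.47, a difference of 7.51 ± 0.62 (SE, adjusted p = 2.97e-07), and Ccl4, which attracts several kinds of leukocyte, one of 5.86 ± 0.50 (SE, adjusted p = 3.54e-07). Both were well above background on 1 monocyte array only. Among 26 trafficking receptors 10 were higher and 8 lower. Receptors for sphingosine phosphate, a lipid that guides cells between tissue and blood, went opposite ways: S1pr1 was at least 18.5-fold higher, and S1pr5 at least 42.4-fold lower (adjusted p = 3.59e-09 and 9.21e-07). Besides C5ar1, the purine receptor P2ry13 was 14.9-fold higher, while the leukotriene B4 receptor Ltb4r1 was lower by 2.60 (adjusted p = 0.000125).

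Integrins, the receptors for adhesion to vessel walls and matrix, were lower for 6 of 18 and higher for 2. Itgal, the alpha chain of LFA-1 on blood leukocytes, had levels of 0.35, 0.25, -0.06 and 0.03 in the macrophages and 4.24, 4.41, 4.63 and 4.42 in the monocytes, a difference of -4.28 ± 0.27 (SE, adjusted p = 1.57e-08). Itgb7, a beta chain of gut-homing receptors, was lower by 3.60 (adjusted p = 1.03e-09) and its alpha chain partner Itga4 by 2.67 (adjusted p = 2.34e-06). In the opposite direction Itga9, a receptor for tenascin and other matrix ligands, was at least 15.6-fold higher and Itgb5, which binds vitronectin, was higher by 1.37 (adjusted p = 0.00148). Matrix genes were likewise split, 11 of 19 higher and 5 lower, with 5 higher after normexp correction. Sparc, a matricellular glycoprotein, had 2.96, 1.49, 1.62 and 2.26 against -5.02, -2.50, -2.52 and -3.72, a difference of 5.52 ± 0.50 (SE, adjusted p = 8.47e-07). Macrophage replicate 1 was the highest of its group for Sparc and monocyte replicate 1 the lowest of its own, and 2 monocyte arrays were well above background. Fn1, which encodes fibronectin, was lower, with levels of -2.82, -4.02, -4.29 and -2.44 in the macrophages, 2 of them well above background, against 4.74, 4.36, 4.66 and 4.18, a 235-fold difference (adjusted p = 3.33e-08). Fibroblast genes stood at 8.59 summed units or more on each macrophage array beside these matrix results, and their part in them was not tested.

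Growth and angiogenic factors were higher for 15 of 28 tested and lower for 1, with a median difference of 0.93 (0.63 at the bound). Igf1, a growth factor for muscle, had levels of 2.76, 1.72, 2.11 and 1.89 in the macrophages. The probe used for it was well above background on no monocyte array, which puts the signal of that probe at least 38.3-fold higher (adjusted p = 5.42e-11). Another of its 5 probes was above background in monocytes, and the 5 gave differences of 0.95 to 7.54, so this is no bound for the gene. Ccn1, a matrix-associated factor well above background on 1 monocyte array, was 63.1-fold higher (adjusted p = 1.6e-07), Pdgfa, a mitogen of mesenchymal cells, 22.6-fold (adjusted p = 8.99e-10), and Bmp2, a ligand of the TGF-beta superfamily, at least 10.6-fold. Over the alternatives tried the log2 difference of Ccn1 ran from 3.78 to 6.44. Tgfb1 was the exception, with 3.31, 2.59, 2.98 and 3.05 in the macrophages against 4.25, 3.81, 4.37 and 3.91, a difference of -1.10 ± 0.21 (SE, adjusted p = 0.00117).

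Transcription factors that set macrophage identity changed in both directions. Of 42 tested, 10 were higher, 8 lower and 24 did not pass. Maf, a leucine zipper factor of resident macrophages, had levels of 3.95, 3.08, 3.13 and 3.18 in the macrophages and -0.80, -1.04, -0.74 and -0.54 in the monocytes, a difference of 4.11 ± 0.24 (SE, adjusted p = 7.23e-09). Every macrophage array was above every monocyte array, and macrophage replicate 1 stood apart from the other 3. Myc, a driver of growth, was 8.87-fold higher (adjusted p = 9.25e-05) and was well above background on 1 monocyte array. Over the alternatives tried its log2 difference ran from 1.79 to 3.67. Id3, an inhibitor of basic helix-loop-helix factors, was higher by 2.39 (adjusted p = 3.07e-05). Nfil3, a basic leucine zipper repressor, had -2.96 to -1.94 against 0.32 to 1.35, a difference of -3.03 ± 0.31 (SE, adjusted p = 3.41e-06), and Bhlhe40, a repressor tied to inflammatory states, was lower by 2.30 (adjusted p = 0.000336). The macrophage arrays lay below all monocyte arrays for both repressors.

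Lysosomal genes were higher in part. Of 48 tested 16 were higher, 3 lower and 29 did not pass, with a median difference of 0.35, and 25 were higher with the slide as a block and quantile normalization together. Cd63, a tetraspanin of the lysosomal membrane, had levels of 3.59, 3.12, 3.53 and 3.13 in the macrophages and was at least 89.3-fold higher (adjusted p = 1.95e-11). Cathepsin F (Ctsf) had 1.37, 1.81, 1.70 and 2.48 against -1.52, -1.04, -1.71 and -0.97 and cathepsin L (Ctsl) 1.79, 0.66, 1.23 and 0.74 against -1.27, -3.04, -1.44 and -2.13. Both proteases were higher on every macrophage array, by 3.15 ± 0.36 (SE) and 3.07 ± 0.42 (SE, adjusted p = 9.98e-06 and 5.81e-05). Psap, the precursor of the saposins that help degrade sphingolipids, was lower, with 5.05, 4.45, 4.76 and 4.93 against 6.15, 5.47, 5.92 and 5.69, a difference of -1.01 ± 0.21 (SE, adjusted p = 0.00227).

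Promoters were read to describe the letters that the genes of these lists hold. RefSeq windows on the build GRCm38.p6, from 250 bases before to 50 after each start, were at hand for 27025 genes. They were searched on both strands for CACGTG, the core bound by the lysosomal regulators TFEB, TFE3 and MITF, for GAGGAAG, a core of the myeloid factor PU.1, and for TGCTGAC, a core of MAF factors. CACGTG was in 8.09% of all genes with a window and in 14 of the 38 lysosomal genes tested that had one (36.8%). It was in 7 of the 14 lysosomal genes called higher and in 7 of the 24 others (29.2%). Of the 19 resident macrophage genes with a window 0 held CACGTG, 7 held GAGGAAG (36.8%, against 15.4% of all genes) and 5 held TGCTGAC (26.3%, against 5.28%). Among 17 Ly6c-high monocyte genes with a window, 3 held GAGGAAG and 0 TGCTGAC. Such shares were not particular to the resident or lysosomal genes. GAGGAAG was in 58.3% of 12 neutrophil and granule genes, 54.5% of 11 Fc receptor genes, 44.4% of 9 endothelial genes and 42.1% of 19 tetraspanin genes, TGCTGAC in 25.0% of the neutrophil and 22.2% of the endothelial genes, and CACGTG in 42.9% of 7 dendritic cell genes. A match is a description of letters and not a shown site, and its absence says only that these letters are not in the window.

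The 250 bases before the start are printed for 6 genes, on the strand of the gene and 5′ to 3′, with matches in capitals. Fcna, Igf1 and Cd63 had the largest fitted differences among resident or lysosomal genes with a match to any of the 3 motifs. Fcna at chr2:25627975-25628224 (minus strand) holds GAGGAAG at 182, 169 and 163 bases before the start, the last pair overlapping by a base, and TGCTGAC once, nearer the start. Igf1 at chr10:87860861-87861110 (plus strand) holds GAGGAAG at 60, and Cd63 at chr10:128909095-128909344 (plus strand) its reverse complement CTTCCTC at 60.
Fcna: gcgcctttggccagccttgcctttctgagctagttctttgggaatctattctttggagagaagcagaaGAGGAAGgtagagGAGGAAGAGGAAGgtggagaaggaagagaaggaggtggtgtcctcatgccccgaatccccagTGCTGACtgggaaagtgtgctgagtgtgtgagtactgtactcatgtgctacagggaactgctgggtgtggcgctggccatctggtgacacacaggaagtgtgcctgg
Igf1: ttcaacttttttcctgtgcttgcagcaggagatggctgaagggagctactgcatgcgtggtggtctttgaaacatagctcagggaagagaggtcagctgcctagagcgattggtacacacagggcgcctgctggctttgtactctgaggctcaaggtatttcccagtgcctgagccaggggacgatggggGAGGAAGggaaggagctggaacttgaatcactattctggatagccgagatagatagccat
Cd63: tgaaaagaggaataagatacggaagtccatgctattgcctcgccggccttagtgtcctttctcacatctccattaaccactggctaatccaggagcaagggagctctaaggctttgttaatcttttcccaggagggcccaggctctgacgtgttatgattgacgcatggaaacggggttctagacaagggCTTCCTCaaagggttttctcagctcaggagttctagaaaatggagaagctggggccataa

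The proteases Ctsf, Ctsl and Lgmn were added after their values were seen. They are the 3 lysosomal genes called higher with the largest difference among those that hold CACGTG in the printed bases. Lgmn, an asparaginyl endopeptidase, was higher by 2.32 ± 0.19 (SE, adjusted p = 1.85e-07). The match lies 79 bases before the start of Ctsf at chr19:4854915-4855164 (plus strand), 236 before that of Ctsl at chr13:64370521-64370770 (minus strand) and 49 before that of Lgmn at chr12:102439093-102439342 (minus strand).
Ctsf: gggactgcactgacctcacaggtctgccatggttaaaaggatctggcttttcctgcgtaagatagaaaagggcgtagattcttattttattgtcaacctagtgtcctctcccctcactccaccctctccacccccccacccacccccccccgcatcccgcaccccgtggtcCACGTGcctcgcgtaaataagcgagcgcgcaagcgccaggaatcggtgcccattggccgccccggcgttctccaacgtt
Ctsl: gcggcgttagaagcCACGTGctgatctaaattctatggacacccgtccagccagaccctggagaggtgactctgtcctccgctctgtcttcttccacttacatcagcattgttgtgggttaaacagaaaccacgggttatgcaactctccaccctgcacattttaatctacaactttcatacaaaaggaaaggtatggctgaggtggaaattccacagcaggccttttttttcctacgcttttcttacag
Lgmn: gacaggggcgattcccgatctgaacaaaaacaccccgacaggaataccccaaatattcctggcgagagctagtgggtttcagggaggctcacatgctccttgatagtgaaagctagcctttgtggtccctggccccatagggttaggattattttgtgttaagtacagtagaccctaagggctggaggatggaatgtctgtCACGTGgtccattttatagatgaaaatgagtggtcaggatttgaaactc

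Lipid genes went both ways. Of 29 genes tested 6 were higher and 9 lower. Abca1, which exports cholesterol to apolipoproteins, had macrophage levels of 0.87, 1.23, 1.73 and 0.81 and was at least 19.7-fold higher (adjusted p = 1.3e-08). Apoc2, the cofactor of lipoprotein lipase, had -0.16, 0.00, 0.13 and -0.47 against 4.44, 3.75, 4.68 and 4.39, 21.8-fold lower (adjusted p = 1.07e-09). Its levels did not overlap between the populations. Fabp5, a fatty acid chaperone, was lower by 1.92 (adjusted p = 0.00124), whereas Fabp3, its form in heart muscle, was higher by 1.86 (adjusted p = 3.97e-06) beside the cardiomyocyte genes described above. Iron and heme genes were higher for 9 of 21 and lower for 1, a call that was lost under several alternatives, among them each of the scalings tried and leaving out macrophage replicate 2, 3 or 4 or monocyte replicate 1, 3 or 4. Cp, the ferroxidase ceruloplasmin, stood at least 27.2-fold above the monocytes (adjusted p = 1.95e-11) and Slc40a1, the iron exporter ferroportin, at least 3.10-fold. Blvrb, which reduces biliverdin and flavins, was higher by 2.93 (adjusted p = 1.07e-06).

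Genes of eicosanoid synthesis and signalling, receptors included, were higher for 8 of 18 and lower for 2. Ltc4s, which makes leukotriene C4, had levels of 5.38, 4.70, 5.18 and 4.91 in the macrophages and -0.60, -1.46, -1.13 and -1.03 in the monocytes, 68.5-fold apart (adjusted p = 6.6e-11). Alox5, which acts just before it, had 4.05, 3.21, 3.56 and 3.12 against -0.84, 0.16, 0.34 and -0.04, a difference of 3.58 ± 0.27 (SE, adjusted p = 1.19e-07). The cyclooxygenase Ptgs1, well above background on 3 monocyte arrays, was 12.1-fold higher (adjusted p = 7.9e-05) and Hpgds, which makes prostaglandin D2, at least 12.1-fold. The prostacyclin receptor Ptgir was at least 13.4-fold lower (adjusted p = 3.4e-09). Alox12, the platelet-type lipoxygenase, was called lower on both of its probes, which gave differences of -4.34 and -2.19. The first of these was well above background on no macrophage array, and no bound is given because the other was.

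Sensing and inflammatory genes had no common direction. Of 19 Toll-like receptors and adaptors 3 were higher and 2 lower, near the shares of all features, 10.1% and 11.2%. Under the slide block 6 were lower, where 4019 of all 22110 features were. Cd14, the co-receptor for lipopolysaccharide, had levels of 3.07, 2.78, 3.18 and 2.45 in the macrophages and 1.22, -1.01, -1.26 and -0.65 in the monocytes, a difference of 3.29 ± 0.41 (SE, adjusted p = 2.58e-05), with monocyte replicate 1 well above the other 3 monocyte arrays. Tlr5, the flagellin receptor, was 6.19-fold higher (adjusted p = 0.000242) and well above background on 2 monocyte arrays. In the TNF family 6 of 18 genes were higher and 3 lower (5 lower with the block). Tnf itself had 3.74, 3.55, 3.55 and 3.23 against -0.10, 0.26, 0.19 and 0.08, 10.6-fold apart (adjusted p = 5.25e-10), and the receptor Tnfrsf1b was lower by 2.19 (adjusted p = 0.000101). Among 17 inflammasome and interleukin-1 genes 2 were higher and 5 lower, or 8 lower with the block. Mefv, which encodes pyrin, had -1.97, -1.17, -1.15 and -0.80 against 3.49, 3.46, 3.62 and 3.34, 26.9-fold lower (adjusted p = 7.69e-09). Il1b was higher by 1.23 ± 0.21 (SE, adjusted p = 0.000497). No macrophage array overlapped a monocyte array for Tnf, Mefv or Il1b.

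Lectins went both ways and Fc receptors one way. Of 20 C-type lectins 8 were higher and 4 lower. Besides Mrc1, the mycobacterial sensor Clec4n was 12.3-fold higher (adjusted p = 5.22e-06) and Cd209f, a relative of DC-SIGN, was higher by 4.19 (adjusted p = 3.55e-05). The fungal and necrosis sensor Clec4e was at least 7.59-fold lower (adjusted p = 8.05e-08), the beta-glucan receptor Clec7a was lower by 2.55 (adjusted p = 5.35e-05) and Cd209a by 3.43 (adjusted p = 0.000751). Fc receptor genes were higher for 5 of 12 and lower for 0, with 3 higher after scaling to the median. Fcrls, an Fc receptor-like scavenger protein, had 4.35, 3.97, 4.41 and 4.16 against -0.90, -0.85, -0.75 and -0.77, a difference of 5.04 ± 0.19 (SE, adjusted p = 5.25e-11), and Fcgrt, the neonatal Fc receptor, was 13.8-fold higher (adjusted p = 4.96e-08). Among 20 tetraspanins 8 were higher and 2 lower (4 with the block), led by Cd81, at least 135-fold higher, and by Cd63. Of 10 Ms4a genes 1 was higher and 4 lower (6 with the block), and the higher one, Ms4a7, a macrophage membrane protein, was 22.4-fold higher (adjusted p = 1.08e-08).

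The 3 classical MHC class II chains of the sort marker list did not pass against monocytes, and 3 chains of the peptide-loading molecule H2-DM were lower. The macrophage gate had selected low MHCII protein. H2-Ab1, the beta chain of I-A, had levels of 4.23, 3.59, 3.26 and 4.70 in the macrophages and 3.57, 3.99, 4.13 and 3.90 in the monocytes, which overlap, and a difference of 0.05 ± 0.25 (SE, adjusted p = 0.937). H2-Aa had a difference of -0.22 ± 0.26 (SE, adjusted p = 0.649) and H2-Eb1 one of 0.51 ± 0.23 (SE, adjusted p = 0.146), which was called higher with quantile normalization, with or without the block, and with normexp. Macrophage replicates 1 and 4 were the higher pair for all 3 chains. Of 17 genes of this pathway 1 was higher and 5 lower, and 2 lower with median or quantile scaling, in the 8-array fit or without macrophage replicate 2, and 3 without monocyte replicate 1. The lower genes were H2-DMb2, H2-DMb1, H2-DMa, Ifi30, a lysosomal thiol reductase, and Ctss, a protease of the loading compartment. Over the 20 alternatives the difference of Ctss ran from -0.68 to -0.23, and its call was lost under 9. H2-DMb2 had -0.29, -1.39, -1.69 and -0.91 against 0.84, 0.20, 1.04 and 0.60, a difference of -1.74 ± 0.40 (SE, adjusted p = 0.00446), and was called lower under every alternative tried. Ifi30 was lower by 1.00 (adjusted p = 0.00454), H2-DMb1 by 0.76 (adjusted p = 0.0161) and H2-DMa by 0.70 (adjusted p = 0.025), and 1 of the 2 H2-DMb1 probes was not called. The calls of H2-DMb1 and H2-DMa were lost with median or quantile scaling, in the 8-array fit and without macrophage replicate 2, that of H2-DMb1 also with the mean of its probes, and that of H2-DMa also without macrophage replicate 3 or monocyte replicate 1 or 3. The higher gene, the costimulatory ligand Cd86, had 1.64, 0.67, 1.20 and 0.94 against -2.46, -2.23, -2.26 and -1.30, 9.03-fold apart (adjusted p = 9.87e-07).

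Cell cycle genes were more often higher than lower, 16 against 2 of 32, with a median difference of 1.08. Ccnd1, a cyclin that lets cells enter the cycle, had levels of 3.45, 2.64, 2.66 and 2.64 in the macrophages and -2.73, -1.48, -0.80 and -1.84 in the monocytes, 23.6-fold apart (adjusted p = 1e-07). Ccnd2 had 3.29, 3.07, 2.75 and 3.12 against -1.25, -0.71, -0.93 and -1.55, 17.9-fold apart (adjusted p = 1.03e-09). Ccnd3, the remaining D-type cyclin, was lower by 1.76 (adjusted p = 2.7e-05). The replication helicase subunit Mcm2 was higher by 3.43 ± 0.56 (SE, adjusted p = 0.00033), with monocyte replicate 1, the single monocyte array well above background, at -2.07 above the other 3 at -5.00 to -4.67. The cell cycle inhibitor Cdkn1a was higher by 3.34 (adjusted p = 5.38e-08) as well.

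Genes of energy metabolism were more often lower in the macrophages than higher. Of 22 glycolysis genes 10 were lower and 3 higher, and 6 lower in a fit to the 8 arrays alone. Ldhb, the lactate dehydrogenase form of oxidative tissue, had -1.65, -3.28, -2.13 and -2.57 against 1.38, 0.93, 1.07 and 0.34, 10.1-fold lower (adjusted p = 1.27e-05). The lactate exporter Slc16a3 had 1.72, 1.33, 1.75 and 1.28 against 3.53, 3.80, 4.05 and 3.29, 4.44-fold lower (adjusted p = 5.32e-06). For neither gene did the populations overlap. Of 85 oxidative phosphorylation genes 27 were lower and 3 higher, and 55 did not pass, with a median difference of -0.53. The lower count ran from 15 in the 8-array fit to 56 with the slide block, and was 16 or 17 without macrophage replicate 2 or 4 or monocyte replicate 1 or 3. Uqcrfs1, the iron-sulfur subunit of complex III, had the largest decrease, -1.91 ± 0.24 (SE, adjusted p = 2.67e-05). The 3 higher genes were Cox6a2, Cox7a1 and Cox8b, the cytochrome oxidase forms of striated muscle, at 2.71 ± 0.26 (SE), 2.64 ± 0.20 (SE) and 2.31 ± 0.37 (SE), in the same arrays that carried 28.8 to 41.7 units of cardiomyocyte signal. Interferon-stimulated genes gave 3 higher and 6 lower of 29, and 14 lower with the block. Oas3, an antiviral enzyme, was lower by 2.26 (adjusted p = 2.73e-05) and Bst2, which tethers virus particles, higher by 1.11 (adjusted p = 0.00544). In the S100 family 3 of 11 were lower, among them S100a6 by 2.29 (adjusted p = 8.99e-06) and S100a4 by 1.76 (adjusted p = 0.000125), and 2 higher.

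**Figure D4:**
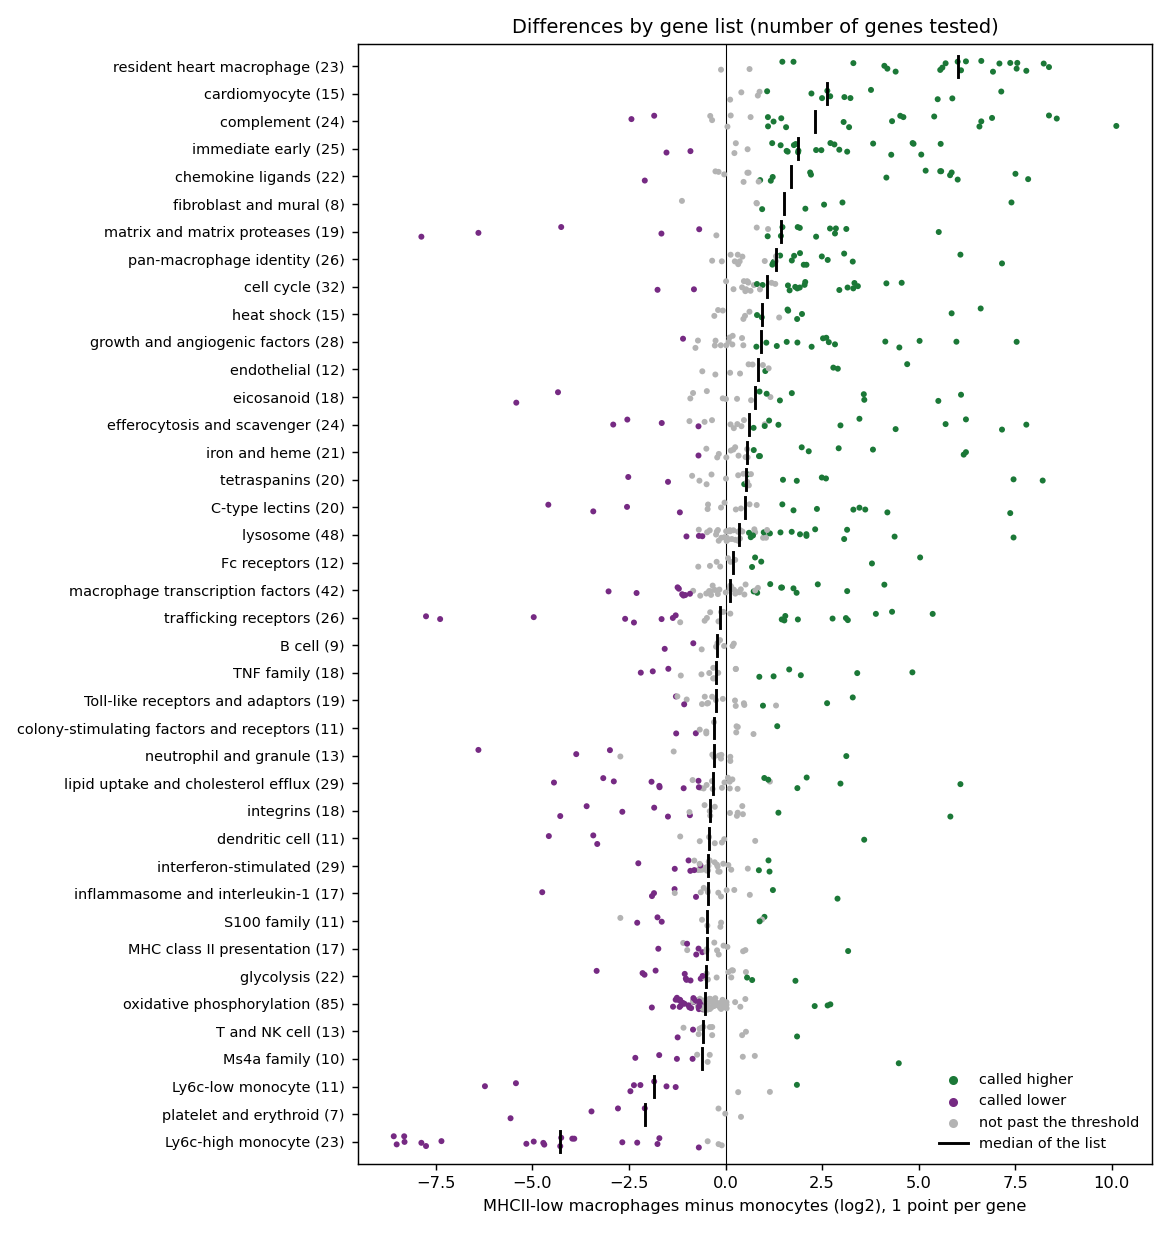
Each row is a gene list with the number of genes tested, ordered by its median, and each point is 1 gene at its difference between MHCII-low macrophages and monocytes (x axis, log2). Green points were called higher, purple lower and grey did not pass, and black bars are list medians, from 6.01 for resident heart macrophage genes to -4.28 for Ly6c-high monocyte genes. Dim genes are drawn at their fitted value, and the median of all genes is -0.05.

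The other heart macrophages share the monocyte arrays as a reference, so their standing was taken from direct contrasts with the MHCII-low macrophages. Against MHCII-high macrophages 15 genes passed (0.0678%), 4 higher (0.0181%) and 11 lower (0.0498%) in the MHCII-low cells. In the same limma fit 863 genes had an unadjusted p under 0.05. The adjusted total was 0 without MHCII-low replicate 2 (1020 at the unadjusted threshold), 0 without replicate 3 (668), and 76 with the slide block. Of the 11 lower genes 6 were in the MHC class II list. The 2 populations had been sorted apart by MHCII protein, so lower class II genes restate that gate and are no independent result. H2-Ab1 levels were 5.88, 5.68, 5.61 and 5.83 in MHCII-high macrophages, above all MHCII-low arrays, a difference of -1.81 ± 0.25 (SE, adjusted p = 0.0172). H2-Eb1 differed by -1.61 ± 0.23 (SE, adjusted p = 0.0172). Il1b, which was higher than in monocytes, was lower than in MHCII-high macrophages, at 1.23 to 1.55 against 2.73 to 3.01, a difference of -1.42 ± 0.21 (SE, adjusted p = 0.0172). Colec12, well above background on 1 MHCII-high array, was higher than in MHCII-high macrophages by 2.49 ± 0.30 (SE, adjusted p = 0.0115). No member of the resident or Ly6c-high monocyte lists passed in this contrast, which is near the 0.0678% of all features and does not show equal levels.

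Against CCR2+ macrophages 612 genes passed (2.77%), 282 higher (1.28%) and 330 lower (1.49%), and 1259 with the slide block. Of the 23 resident genes 18 were higher in the MHCII-low cells and 0 lower, and of the 23 Ly6c-high monocyte genes 11 were lower and 0 higher. Timd4 had levels of 0.27 to 0.52 in MHCII-low and -4.18 to -2.82 in CCR2+ macrophages, 3 of them well above background, a difference of 3.70 ± 0.25 (SE, adjusted p = 9.65e-07), and Lyve1 one of 3.28 ± 0.42 (SE, adjusted p = 0.000281). C1qa was 5.86 to 6.40 in CCR2+ macrophages against 6.50 to 6.88 in MHCII-low ones, and did not pass (0.63 ± 0.25 SE, adjusted p = 0.286). Ear2, dim in both CCR2-negative populations, had levels of 0.96 to 1.48 in CCR2+ macrophages, between those of MHCII-low macrophages and monocytes. Plac8 stood at -0.90 to 2.73 there, also between them, with a difference of -3.16 ± 0.56 (SE, adjusted p = 0.00457). Cardiomyocyte genes did not pass in either contrast (0 of 15), nor did heat shock genes (0 of 15). Of all features 0.0678% and 2.77% passed in the 2 contrasts, so these counts are near the general share and do not show equal levels. Mb was 1.66 to 2.30 in MHCII-high and 1.00 to 2.19 in CCR2+ macrophages, and Hspa1a 4.17 to 5.25 and 3.92 to 4.72.

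**Figure D5:**
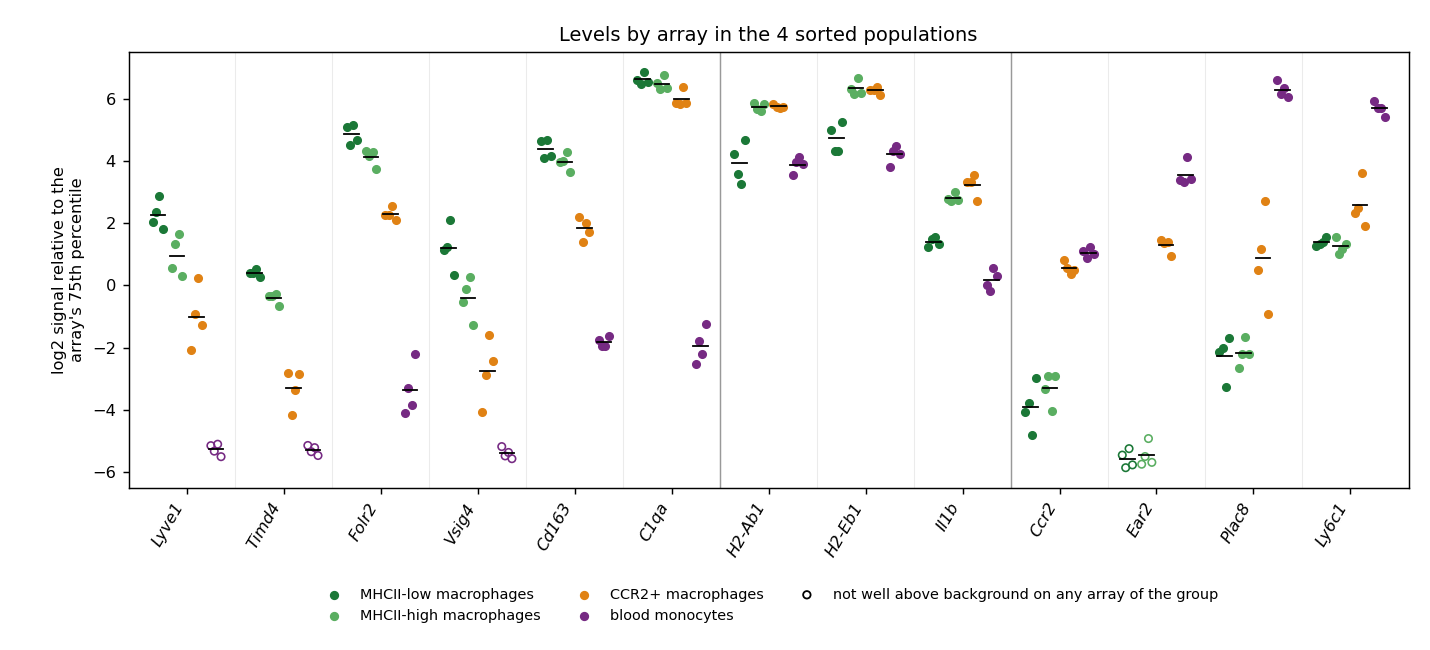
Levels by array (y axis, log2 signal relative to the 75th percentile of the array) of 13 genes in MHCII-low (dark green), MHCII-high (light green) and CCR2+ macrophages (orange) and in blood monocytes (purple). Points are the 4 arrays, bars their mean, and hollow points mark probes well above background on none of those 4 arrays. Ear2 lies at 0.96 to 1.48 in CCR2+ macrophages and at 3.32 to 4.13 in monocytes, and is hollow in the CCR2-negative populations.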

How the data were processed

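Per the labels' protocols, sorted cells were lysed in Trizol, RNA was taken over Qiagen columns, 1 ng per sample was used, and cDNA was labelled with the Kreatech ULS chemistry. The deposited scanner files hold an intensity per spot, extracted with Agilent Feature Extraction 11.5.1.1 per the submitters' processing notes, which also name Partek. The intensity used is the processed signal, background-subtracted and detrended within the array per the file headers, where dim spots carry surrogate values and arrays are unscaled. In all 16 files the headings were shifted against the columns, so columns were found by content. The deposited value table of log2 values was not used for results: 0 of its 16 columns best matched the scanner file of the same label, and 12 matched an array of another group best (r of at least 0.995 across probes).

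Each array has 44397 spots, 1377 of them controls. Control and marked spots were dropped, log2 of the processed signal was taken relative to the array's 75th percentile, and spots of a probe were averaged. A probe was kept if well above background on at least 4 of 16 arrays, and the brightest kept probe stood for a gene, giving 22110 features, 17246 of them named. Of 39429 probes 27502 were named through RefSeq accessions, 5056 by the file and 6871 by neither. The number of arrays limits the precision. Group means of all 16 arrays were fitted with limma 3.58.1 in R 4.3.3 (lmFit and eBayes, 12 residual degrees of freedom, two-sided), with Benjamini-Hochberg adjustment over all features. The fit was tested on simulated data. Each slide held 1 array of each group, and the replicate number is the slide. Deviations from group means of same-numbered arrays correlated at 0.196, 0.389, 0.137 and 0.269 across genes, and those of differently numbered arrays at -0.406 to 0.370. Macrophage replicates 1 and 4 correlated better with a monocyte array of another number. Every same-numbered value exceeded 0.1, but so did some differently numbered ones, up to 0.370, so these values cannot show a pairing. The main fit had no block. The fit with the slide as a block is given where it changes a call or moves a count by over 1.5 times.

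Genes were named by rule among those called with the same sign on all 4 slides: the 12 largest differences in each direction with the probe above background on at least 3 arrays of both groups, the 12 largest bounds in each direction, the sort markers whether called or not, and the 4 largest called members per direction of each of the 41 lists, whose members may also be named where they did not pass. Exceptions are said in the text to have been chosen after their values were seen. The members and lists were chosen with earlier results of these data known. A few genes that the rule names are not reported here. Promoter windows are RefSeq's.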

Additional observations from a re-analysis of the deposited data

Results flagged for a closer look

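Among 464 groups of 4 arrays, the macrophages and the monocytes for each of 232 named genes, 23 had 1 array set apart from the other 3 by more than Dixon's 95% critical value, and chance alone sets apart about 1 group in 20. Of these 14 were in the monocytes, 7 of them replicate 1, and 9 in the macrophages. Monocyte replicate 1 was high for the pore-forming protein Gsdmd (6.20, others 3.09 to 3.39), the glycolytic enzyme Pgk1 (5.86, others 2.03 to 2.59), the helicase subunit Mcm2 (-2.07, others -5.00 to -4.67), the prostaglandin synthase Hpgds (-3.81, others -5.56 to -5.36, none well above background), the neutrophil antigen Cd177 (0.97, others 0.29 to 0.37) and the nucleic acid sensor Zbp1 (2.99, others 2.63 to 2.66). It was low for Alas2, which starts heme synthesis in red cells (-1.79, others -0.46 to -0.20). For Mcm2 the other monocyte arrays were not well above background. Monocyte replicate 3 was high for Ear2 (4.13, others 3.32 to 3.42), Itgax (0.39, others -0.96 to -0.75) and the tetraspanin Tspan5 (2.42, others 1.92 to 1.95). Monocyte replicate 4 was low for the neutrophil collagenase Mmp8 (1.49, others 1.81 to 1.85), Nfe2 (3.24, others 3.68 to 3.77) and S100a4 (5.62, others 6.04 to 6.09), and replicate 2 for the peptidase Dpp4 (-0.87, others -0.14 to -0.01).

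In the macrophages replicate 1 was high for Ccnd1 (3.45, others 2.64 to 2.66) and Maf (3.95, others 3.08 to 3.18), and low for the proteoglycan Vcan (-4.91, others -1.62 to -1.54) and for Dpp4 (-4.24, others -3.38 to -3.36). Replicate 2 was high for Alox12 (-4.06, others -5.81 to -5.53, none well above background) and Mmp8 (-3.56, others -5.14 to -4.89), and replicate 3 for Cytip (-1.62, others -3.10 to -2.89). Replicate 4 was low for Ear12 (-4.70, others -3.33 to -3.09) and for the costimulatory ligand Tnfsf9 (-1.23, others -0.21 to -0.01). The dimmest signal counted as well above background was -3.90 to -3.51 on the macrophage arrays. Below it lay the outlying Vcan, Dpp4 and Ear12 values and the other Mmp8 values.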

How the results depend on the processing

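Of the 232 named differences from monocytes, 199 kept their side of the threshold under every alternative that gave them a value. The threshold was lost by 31 under at least 1, and 0 that passed in either setting changed direction. H2-Aa and H2-Ab1, which passed in no setting, changed sign, with differences of -0.47 to 0.13 and -0.20 to 0.37 over the alternatives. No named gene lost the threshold with the slide as a block, array weights, an intensity trend or no filter on dim probes. It was lost by 16 with median scaling, 15 in a fit to the 2 groups only, 11 with normexp and 5 to 11 when an array was left out. For the comparison with monocytes, counts moved by over 1.5 times under 3 alternatives: with the replicate block the total was 7124 and the lower count 4019, with the block and quantile normalization the higher count was 3414, and without the filter on dim probes the lower count was 4560. The totals without 1 array were 4005 to 4665. Against MHCII-high macrophages the 15 calls became 4 with median scaling, 0 in a fit to the 2 groups only (765 at an unadjusted p under 0.05 by limma), 76 with the replicate block, 69 with the block and quantile normalization, 91 with array weights and 27 with an intensity trend, and 0 to 18 without 1 MHCII-low array. Against CCR2+ macrophages the 612 calls became 380 with median scaling, 333 with 2 groups only, 1259 with the replicate block, 1350 with the block and quantile normalization and 1215 with array weights, and 410 to 659 without 1 array. The fits to 2 groups have fewer samples, and the cause of the other shifts was not tested. The block changed no call of a named gene against monocytes. A split by scan was not run because each slide was scanned on its own. Genes dim on all arrays of a population have only bounds, which hold for the main setting, and 13 genes had probes called in both directions.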

Other observations

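Some of the largest differences belonged to no list. Mt2, a metallothionein that binds zinc and copper, was at least 65.1-fold higher in MHCII-low macrophages, at 2.29 to 3.60, and its levels in MHCII-high and CCR2+ macrophages were 2.19 to 3.75 and 1.70 to 2.92. Pmp22, a membrane protein best known from myelin, had 5.27, 4.75, 5.25 and 4.96 against -1.07, -1.87, -1.69 and -1.21 in monocytes, 91.4-fold apart (limma, adjusted p = 1.95e-11), and was 3.07 to 3.54 in CCR2+ macrophages. Cd83, a maturation marker and the member of the dendritic cell list that was called higher (1 of 11, 3 lower), differed by 3.59 ± 0.40 (SE, adjusted p = 8.22e-06).

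Among genes lower than in monocytes, E2f2, a transcription factor of the cell cycle, had -0.54, -2.15, -2.69 and -2.27 against 3.31, 3.55, 3.63 and 3.11, 39.8-fold apart (limma, adjusted p = 7.36e-08). Nfe2, an erythroid and megakaryocyte factor, was 43.1-fold lower (adjusted p = 3.85e-05) in the comparison in which haemoglobin genes were lower too, and the part of red cells in it was not tested. Cytip, which binds a regulator of integrin adhesion, was 39.2-fold lower (adjusted p = 1.33e-08). A pair of sphingolipid enzymes was dim in the macrophages, Sgms2, a sphingomyelin synthase, at least 20.4-fold lower and Cers6, a ceramide synthase, at least 13.6-fold. Galnt9, a glycosyltransferase, was at least 44.0-fold lower and the activating receptor Trem3 at least 13.5-fold. The azurophil granule protease Prtn3 was at least 4.86-fold lower, whereas Csf2rb, the shared receptor chain for GM-CSF, was lower by 1.28 (adjusted p = 0.000155). The angiotensin-converting enzyme Ace, a gene of Ly6c-low monocytes, was lower by 2.46 (adjusted p = 3.18e-07), and Cd300ld, of the same list, was higher by 1.85 (adjusted p = 4.17e-05).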
